A study of Mus musculus with 2 samples.

Results

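The genes described here are 59 mouse genes of DNA replication and mitosis, chosen by symbol, of which 56 had at least 1 probe annotated to that symbol alone among the 17501 named genes of the deposited table. The replication group holds 29 symbols, 28 of them measured, and the mitosis group 30 symbols, again with 28 measured. Gins2, Ccnb1 and Cenpf had no such probe and are not analysed here. The 56 genes rest on 93 probes: 33 genes had 1 probe and 23 had 2 to 4.

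The study compared RNA of Th17-polarized and of Th1-polarized lymphocytes with RNA of Th0-polarized lymphocytes on 2 two-colour microarrays, with 1 array for each polarized population. All 3 populations were cultured in vitro from a TRP-1 mouse, a line whose T cells carry a receptor against a melanocyte antigen. Polarized RNA carried the dye Cy5 and Th0 RNA the dye Cy3. The sources used here give no number of mice, age, culture time or cell sort. Th0 usually names activated T cells grown without lineage-directing cytokines. Th1 cells make interferon gamma, and Th17 cells make interleukin 17. There was no replicate and no dye swap, so no value below has a replicate error and none was tested. A ratio also gives no level, so the labelled cell type could not be checked by the presence of its markers.

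A cell that divides first licenses its replication origins in G1 by loading the MCM helicase, then copies its DNA in S phase with polymerases, a sliding clamp and a supply of deoxynucleotides. It then enters mitosis through cyclin-dependent kinase 1, attaches its chromosomes to the spindle under a checkpoint, separates them and divides. Many replication genes are transcribed under E2F factors around the start of S phase, and many mitosis genes later, in G2, under FOXM1 and a complex that binds the CHR element. Activated T cells are known for rapid division, so these genes are commonly read as a sign of how many cells of a culture are cycling. In RNA from whole cultures, fewer cycling cells and less of each RNA per cycling cell cannot be told apart.

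Each value is a log2 ratio of the 2 channels of an array as deposited, averaged over the probes of a gene. The order of that ratio is not settled. The titles name the polarized population over Th0, but Il17a, the gene that names the Th17 lineage, lay at −5.37 on the Th17 and Th0 array, and Ifng, the interferon gamma gene, at −2.02 on the Th1 and Th0 array. Values are therefore given as positive or negative as deposited. If the ratio is polarized over Th0, a negative value means less RNA in polarized than in Th0 cells, and if it is Th0 over polarized, the reverse. The difference of the Th17 array minus the Th1 array has the same 2 readings, and it further takes 1 Th0 RNA to be common to the arrays, on which the labels are silent.

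The replication and mitosis genes lay mostly below 0 on the Th17 and Th0 array and mostly above 0 on the Th1 and Th0 array, as deposited. The side of an array depends on where its 0 is set. Centred on the most repeated value of each array, the replication median on the Th17 and Th0 array was 0.24, and centred on control genes, the mitosis median on the Th1 and Th0 array was −0.03. On the Th17 and Th0 array 51 of the 56 genes were below 0, against 53.7% of all named genes, and 5 above it, against 46.3%. Their median was −0.30, against −0.03 for all named genes. On the Th1 and Th0 array 49 of the 56 were above 0, against 42.6% of all named genes, and 7 below it, against 57.4%. Their median was 0.28, against −0.08. In the Th17 array minus the Th1 array 50 of the 56 were below 0, against 46.1% of all named genes, and 6 above it, against 53.9%. Of 13 widely expressed control genes, 8 lay below 0 on the Th17 and Th0 array and 12 above 0 on the Th1 and Th0 array. In the difference 12 of these 13 lay below 0, with a median of −0.23. The lowest 10% of all named genes held 34 of the 56. The median difference was −0.69, against 0.04 for all named genes, whose middle 50% ran from −0.23 to 0.29. Of the 93 probes taken singly, 77 had a difference below 0, against 47.3% of all probes with 1 gene.

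Most genes lay within 1.5-fold of 0 on each array, and most lay beyond it in the difference. On the Th17 and Th0 array 17 of the 56 genes were negative by at least 1.5-fold, against 13.0% of all named genes, and 0 were positive by as much, against 7.88%. On the Th1 and Th0 array 14 were at least 1.5-fold on the positive side, against 9.49% of all named genes, and 2 on the negative side, against 16.5%. In the difference 31 were at least 1.5-fold on the negative side, against 9.33% of all named genes, and 2 on the positive side, against 11.2%. At 2-fold the difference held 14 genes on the negative side, against 3.61% of all named genes, and 1 on the positive side, against 4.53%. On the Th17 and Th0 array itself 1 gene, Kif11, was negative by at least 2-fold, against 5.52% of all named genes, and 0 were positive by as much, against 2.9%. On the Th1 and Th0 array 2 genes, Bub1 and Prim1, were positive by at least 2-fold, against 3.27% of all named genes. Cenpe and Mki67 were the 2 genes negative by as much there, against 6.92%.

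With the full lists, the medians of replication and mitosis genes lay furthest apart on the Th17 and Th0 array. There the 28 mitosis genes had a median of −0.52 and all 28 lay below 0. The 28 replication genes had a median of −0.19 and 23 lay below 0, against 53.7% of all named genes. The replication median was thus 0.33 above the mitosis median, a value that no centring of the array can change. The middle 50% of the 2 groups met near −0.3, running from −0.64 to −0.27 for mitosis genes and from −0.32 to −0.06 for replication genes. On the Th1 and Th0 array 25 replication genes and 24 mitosis genes lay above 0, against 42.6% of all named genes. The groups were closer there, with medians of 0.36 for replication genes and 0.23 for mitosis genes, 0.14 apart. That smaller gap was 0.05 without the probes that match a weak channel and 0.03 with every probe as its own value. In the Th17 array minus the Th1 array the medians were −0.58 for replication genes and −0.83 for mitosis genes, 0.24 apart. In each group 25 genes lay below 0, against 46.1% of all named genes. The 1.5-fold mark on the negative side of that difference was passed by 13 replication genes and 18 mitosis genes, against 9.33% of all named genes. The 2-fold mark was passed by 4 and 10, against 3.61%. Genes of a group are not replicates, so these gaps are a description of 2 arrays.

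The gap between the groups rested in part on the make-up of the lists and on the probes. Without E2f1, Ccne1, Ccne2 and Ung in the one group and Foxm1, Ccna2, Mki67 and Top2a in the other, it narrowed to 0.18 on the Th17 and Th0 array and to 0.10 in the difference, and widened to 0.19 on the Th1 and Th0 array. Genes with 1 probe gave a wider gap. Their median difference was −0.69 over 15 replication genes and −1.10 over 18 mitosis genes, whereas the genes with several probes had medians of −0.50 over 13 replication genes and −0.38 over 10 mitosis genes. With all probes averaged, the order of the groups in the difference was thus turned in the genes with several probes. That turn rested on Cenpe, which counts there at 1.35 and lay at −0.77 without its distant probe. Among all named genes the median difference was 0.05 with 1 probe and 0.01 with several, so probe number moved the whole table little.

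The promoters of the 2 groups differed in the short sequence elements that mark E2F-driven and late cell cycle genes. RefSeq promoter entries (build GRCm38.p6) were found for 46 of the 56 genes, giving 51 windows of 250 bases before a transcript start. An E2F element was searched as TTCCCGC or as TTCGCGC, and likewise as TTGGCGC or as TTGCCGC. The CHR element was searched as TTTGAA and the CCAAT box by the letters of its name, and each search ran on both strands. The E2F and CCAAT letters can overlap, and a window counts once for each element it holds. The E2F element was found in 11 of 28 replication windows (39.3%) and in 2 of 23 mitosis windows (8.70%), against 7.89% of all 32851 windows of the table. The CHR element was found in 3 of 28 replication windows (10.7%) and in 9 of 23 mitosis windows (39.1%), against 15.99% of all windows. The CCAAT box was found in 14 of the 28 replication windows and in 17 mitosis windows (73.9%), against 33.9% of all windows. The median GC content was 56.8% in replication windows, 59.6% in mitosis windows and 52.4% in all windows. A match describes letters in a window and not a bound site.

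Below are replication genes with an E2F element and mitosis genes with a CHR element. Of those with a single window, the 2 with the lowest differences between the arrays in each group are shown. They were picked because they hold the element found more often in their group. Sequences run 5′ to 3′ on the gene's strand and end at the base before the transcript start, and capitals mark E2F, CHR and CCAAT matches on either strand. Prim1 lies on the plus strand at chr10:128014965-128015214 and Mcm6 on the minus strand at chr1:128359706-128359955. Kif11 lies on the plus strand at chr19:37376132-37376381 and Top2a on the minus strand at chr11:99024190-99024439.
Prim1: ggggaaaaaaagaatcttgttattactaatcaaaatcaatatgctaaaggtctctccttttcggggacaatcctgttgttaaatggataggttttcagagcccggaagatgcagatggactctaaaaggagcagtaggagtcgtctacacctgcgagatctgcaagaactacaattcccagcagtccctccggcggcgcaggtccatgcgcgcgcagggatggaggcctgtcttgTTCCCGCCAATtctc
Mcm6: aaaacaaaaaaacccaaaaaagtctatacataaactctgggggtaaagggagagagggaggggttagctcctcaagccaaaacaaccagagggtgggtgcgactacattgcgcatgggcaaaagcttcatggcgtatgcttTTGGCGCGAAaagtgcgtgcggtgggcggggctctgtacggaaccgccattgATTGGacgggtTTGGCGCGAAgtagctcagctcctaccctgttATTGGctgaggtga
Kif11: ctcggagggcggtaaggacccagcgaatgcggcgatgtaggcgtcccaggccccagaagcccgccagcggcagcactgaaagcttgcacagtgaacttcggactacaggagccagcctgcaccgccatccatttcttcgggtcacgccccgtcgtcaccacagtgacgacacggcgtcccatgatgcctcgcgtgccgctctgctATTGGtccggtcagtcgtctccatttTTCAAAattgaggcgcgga
Top2a: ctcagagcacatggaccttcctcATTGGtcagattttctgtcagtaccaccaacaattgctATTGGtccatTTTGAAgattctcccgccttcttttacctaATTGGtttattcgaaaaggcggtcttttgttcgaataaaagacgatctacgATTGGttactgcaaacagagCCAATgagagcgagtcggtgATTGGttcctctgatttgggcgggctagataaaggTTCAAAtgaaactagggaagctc
The Prim1 window holds 1 E2F match that begins 15 bases before the start and overlaps a CCAAT box. The Mcm6 window holds 4 E2F matches in 2 overlapping pairs, which begin 109 and 106 and then 46 and 43 bases before the start. Kif11 has 1 CHR match 19 bases before the start and 1 CCAAT box, and Top2a has 2 CHR matches, the nearer one 23 bases before the start, and 6 CCAAT boxes. The last bases of the Top2a window lie inside a longer RefSeq transcript of that gene.

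The genes are described below by role, and the roles were assigned after the values were seen. Mcm2 to Mcm7 encode the 6 subunits of the ring helicase that unwinds DNA. On the Th17 and Th0 array they spread from −0.75 for Mcm7 to 0.10 for Mcm5, and on the Th1 and Th0 array all 6 lay above 0, from 0.05 for Mcm4 to 0.83 for Mcm2. All 6 differences, as means over probes, were below 0, with a median of −0.83. Mcm3 had the lowest difference of the replication group, −1.20 (2.30-fold), from −0.70 on the Th17 and Th0 array and 0.50 on the Th1 and Th0 array. Mcm6 lay at −0.67 ± 0.86 on the Th17 and Th0 array and 0.43 ± 0.46 on the Th1 and Th0 array (SD over 3 probes), and its difference was −1.10 ± 0.45. Mcm7 lay at −0.75 ± 0.45 and 0.15 ± 0.34 on those arrays (SD over 2 probes), while Mcm2 lay at 0.07 and 0.83 and Mcm5 at 0.10 and 0.68, the 2 helicase genes above 0 on both. The helicase gene with the smallest difference was Mcm4, at −0.05 ± 0.04 and 0.05 ± 0.99 (SD over 2 probes) on those arrays. Its probes had differences of −0.83 and 0.63, so its mean of −0.10 described neither.

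**Figure D1:**
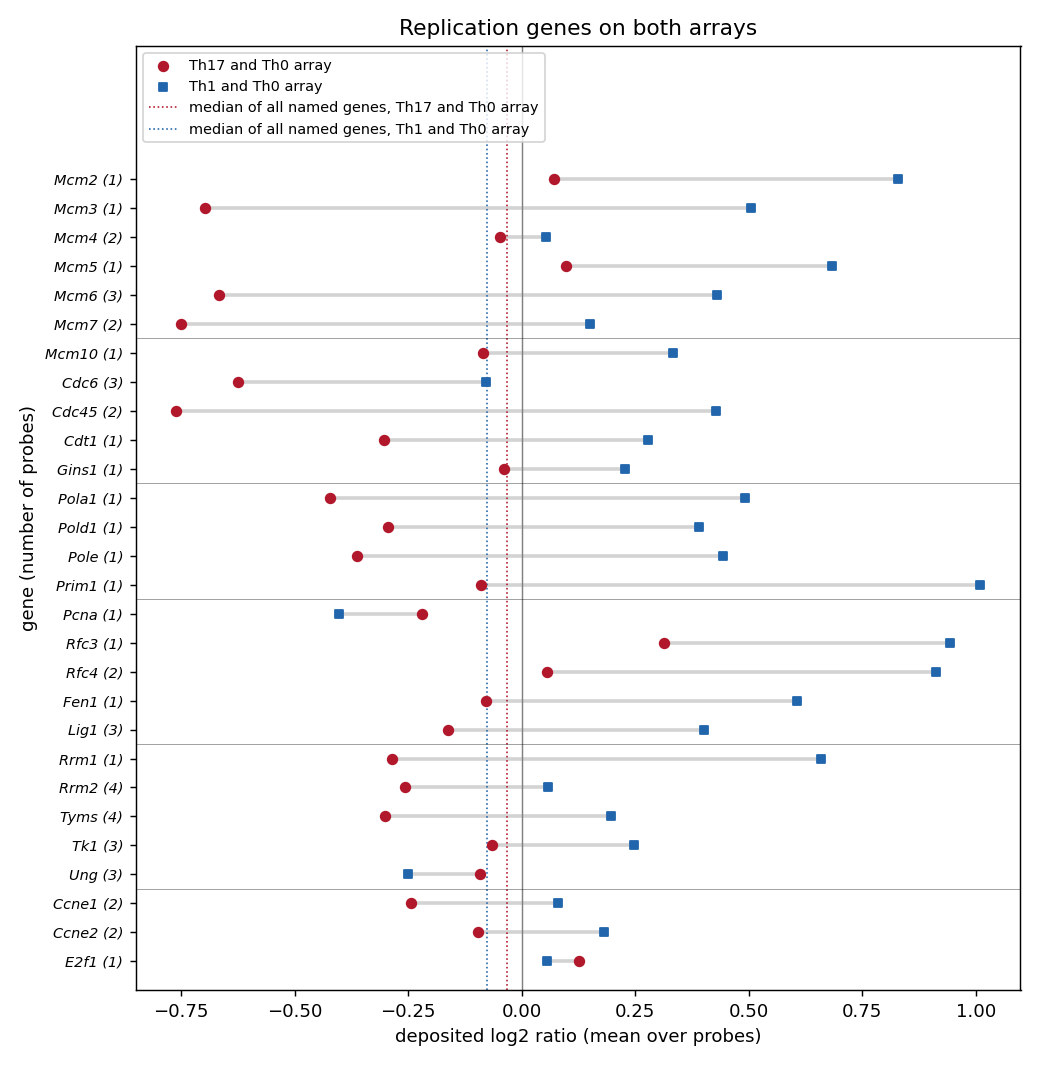
Deposited log2 ratio (x axis, mean over probes) of the 28 measured replication genes (y axis, with their number of probes), with circles for the Th17 and Th0 array and squares for the Th1 and Th0 array, dotted lines for each array's median over all named genes and thin lines between roles. In 25 of the 28 genes the circle lies left of the square, and Pcna, Ung and E2f1 are the exceptions.

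Genes that load or fire the helicase also had differences below 0, with a median of −0.55 over 5 genes. Cdc45, a subunit of the active helicase, lay at −0.76 ± 0.51 on the Th17 and Th0 array and 0.43 ± 0.30 on the Th1 and Th0 array (SD over 2 probes), a difference of −1.19 ± 0.21. Cdc6, which loads MCM onto origins, lay at −0.62 ± 0.14 and −0.08 ± 0.59 on those arrays (SD over 3 probes), so it was below 0 on both. Cdt1, its partner in loading, lay at −0.30 on the Th17 and Th0 array and 0.28 on the Th1 and Th0 array. Mcm10, an initiation factor, lay at −0.09 and 0.33, and Gins1, a helicase cofactor, at −0.04 and 0.23, the smallest difference of these 5 genes.

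The polymerase and primase genes had 4 of 4 differences negative by at least 1.5-fold, against 9.33% of all named genes. Their median difference was −0.86. Prim1, the catalytic subunit of primase, lay at −0.09 on the Th17 and Th0 array and 1.01 on the Th1 and Th0 array, the highest value of the replication group there (2.01-fold). Pola1, the subunit of the polymerase that extends primers, lay at −0.42 and 0.49 on those arrays. Pole, of leading-strand synthesis, lay at −0.36 and 0.44, and Pold1, of lagging-strand synthesis, at −0.30 and 0.39. Each of the 4 genes had 1 probe.

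Rfc3 and Rfc4 encode subunits of the loader of the sliding clamp, and both lay above 0.9 on the Th1 and Th0 array. Rfc3 was at 0.31 on the Th17 and Th0 array, the highest of the group there, and 0.94 on the Th1 and Th0 array. Rfc4 was at 0.06 ± 0.17 and 0.91 ± 0.03 on those arrays (SD over 2 probes), with a difference of −0.86 ± 0.14. Fen1, the nuclease that trims Okazaki fragments, lay at −0.08 and 0.61, and Lig1, which joins them, at −0.16 ± 0.26 and 0.40 ± 0.22 (SD over 3 probes). Pcna, the clamp itself, differed from its loader. It lay at −0.22 on the Th17 and Th0 array and −0.40 on the Th1 and Th0 array, the lowest of the replication group there, so its difference was 0.18, from 1 probe.

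The genes of nucleotide supply and uracil removal had a median difference of −0.31, although Rrm1 lay as low as the polymerase genes. Rrm1, the large subunit of ribonucleotide reductase, lay at −0.28 on the Th17 and Th0 array and 0.66 on the Th1 and Th0 array, with a difference of −0.95. Rrm2, the small subunit, had a difference of only −0.31 ± 0.23 (SD over 4 probes), from −0.26 ± 0.29 and 0.06 ± 0.17 on those arrays. Tyms, thymidylate synthase, had a difference of −0.50 ± 0.57 (SD over 4 probes) and Tk1, thymidine kinase, one of −0.31 ± 0.49 (SD over 3 probes), so their probes did not all share a side. Ung, which removes uracil from DNA, had a difference of 0.16 ± 0.20 (SD over 3 probes), with the 3 probes between 0.04 and 0.39.

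The regulators of the step from G1 to S phase had the smallest differences of the replication group, with a median of −0.28 over 3 genes. Past 1.5-fold on either side were 0 of the 3, against 20.5% of all named genes. Ccne1, a cyclin that starts S phase, lay at −0.24 ± 0.05 on the Th17 and Th0 array and 0.08 ± 0.19 on the Th1 and Th0 array, and its relative Ccne2 at −0.10 ± 0.13 and 0.18 ± 0.35 (SD over 2 probes each). E2f1, an activating E2F factor, lay at 0.13 and 0.06, with a difference of 0.07.

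The genes of entry into mitosis were the lowest role with more than 2 genes on the Th17 and Th0 array. Their median was −0.66 there and 0.20 on the Th1 and Th0 array. At least 1.5-fold on the negative side were 5 of 5 differences, against 9.33% of all named genes. Cdk1, the kinase that drives entry, lay at −0.83 ± 0.71 on the Th17 and Th0 array and 0.03 ± 0.65 on the Th1 and Th0 array (SD over 2 probes). The 2 Cdk1 probes stood about as far apart on each array, so their difference was even, −0.86 ± 0.06. The probe at −1.33 on the Th17 and Th0 array lay at −0.43 on the Th1 and Th0 array, a step from that array's most repeated value that a weaker channel of 3 units would give. Without that probe Cdk1 lay at −0.32 on the Th17 and Th0 array. Ccna2, the cyclin of S phase and G2, lay at −0.59 and 0.72, a difference of −1.31 (2.48-fold). Ccnb2, a mitotic cyclin, lay at −0.60 and 0.29. Cdc25c, the phosphatase that activates Cdk1, lay at −0.66 ± 0.34 and 0.06 ± 0.31 (SD over 3 probes), and Foxm1, the transcription factor of G2 genes, at −0.75 ± 0.32 and 0.20 ± 0.21 (SD over 2 probes).

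**Figure D2:**
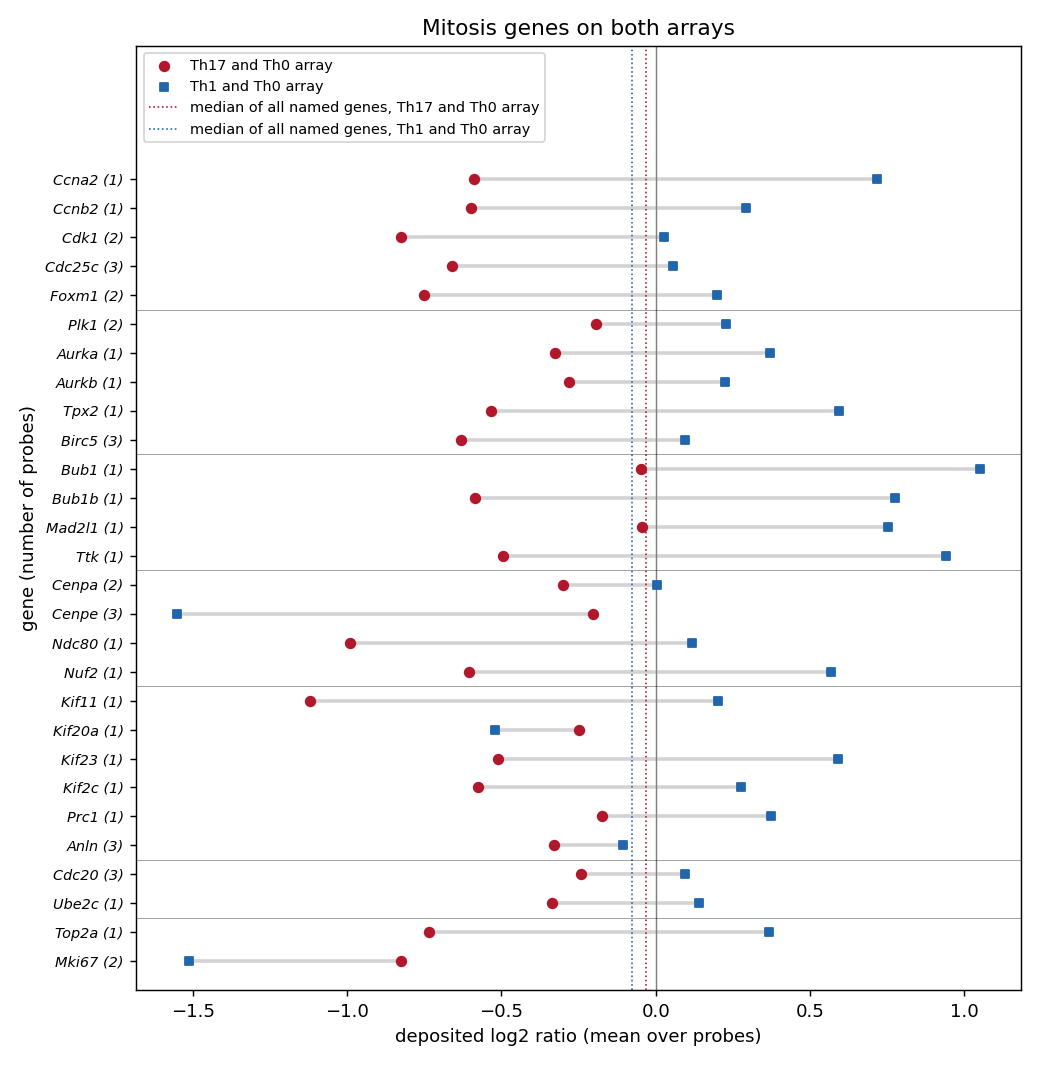
Deposited log2 ratio (x axis, mean over probes) of the 28 measured mitosis genes (y axis, with their number of probes), with circles for the Th17 and Th0 array and squares for the Th1 and Th0 array, dotted lines for each array's median over all named genes and thin lines between roles. All 28 circles lie below 0 as deposited, and the square lies left of the circle for Cenpe, Kif20a and Mki67.

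The spindle checkpoint genes stood highest on the Th1 and Th0 array of all roles, with a median of 0.86. There 4 of 4 genes were at least 1.5-fold on the positive side, against 9.49% of all named genes. Bub1, a kinase of the checkpoint, lay at −0.05 on the Th17 and Th0 array and 1.05 on the Th1 and Th0 array, the highest of all 56 genes there (2.07-fold). Mad2l1, which holds back the anaphase-promoting complex, lay at −0.05 and 0.75. Bub1b, which acts with it, lay at −0.59 and 0.78, with a difference of −1.36 (2.57-fold). Ttk, the kinase that starts the checkpoint, lay at −0.49 and 0.94, and its difference of −1.43 (2.70-fold) was the lowest of all 56 genes. The median difference of the 4 genes was −1.23, from 1 probe each.

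Kinetochore genes, which tie chromosomes to the spindle, had low differences with 1 exception. Ndc80 and Nuf2 encode 2 partners of the same complex. Ndc80 lay at −0.99 on the Th17 and Th0 array and 0.12 on the Th1 and Th0 array, and Nuf2 at −0.61 and 0.57. The differences of −1.11 and −1.17 were alike while the arrays split them unequally. Each rests on 1 probe, and that of Nuf2 matched a weaker channel of 3 units on the Th1 and Th0 array. Cenpa, the centromere histone, had a difference of −0.30 ± 0.63 (SD over 2 probes). Cenpe, a kinetochore motor, was the exception at 1.35 ± 3.67 (SD over 3 probes). Its 3 probes lay at 0.22, −0.19 and −0.64 on the Th17 and Th0 array and at −5.37, 0.41 and 0.30 on the Th1 and Th0 array. The value of −5.37 lay 23.0-fold from the most repeated value of that array, close to a whole-number ratio over a channel of 1 unit. Without that probe Cenpe lay at −0.41 and 0.36, and its difference was −0.77, on the side of the other kinetochore genes.

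Among mitotic kinases and their partners 5 of 5 genes were below 0 on the Th17 and Th0 array, against 53.7% of all named genes. All 5 were above 0 on the Th1 and Th0 array, against 42.6%. Tpx2, which activates Aurora A on the spindle, lay at −0.53 and 0.60 on those arrays, with a difference of −1.13. Birc5, the survivin subunit of the Aurora B complex, lay at −0.63 ± 0.26 and 0.10 ± 0.04 (SD over 3 probes). Of the kinase genes, Aurka lay at −0.33 and 0.37, Aurkb at −0.28 and 0.22, and Plk1 at −0.19 ± 0.19 and 0.23 ± 0.40 (SD over 2 probes). The Aurka difference of −0.70 was close to that of Birc5, −0.73.

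Of the motors and cytokinesis genes, Kif11, the motor that separates spindle poles, had the lowest value of all 56 genes on the Th17 and Th0 array, −1.12 (2.17-fold), with 0.20 on the Th1 and Th0 array. Kif23, a motor of the central spindle, lay at −0.51 and 0.59, Kif2c, which takes microtubules apart, at −0.58 and 0.28, and Prc1, which bundles them, at −0.18 and 0.37. The 1 probe of Prc1 matched a weaker channel of 3 units on the Th1 and Th0 array. Kif20a, a further central spindle motor, lay at −0.25 and −0.52, with a difference of 0.27. Anln, a scaffold of the contractile ring, lay at −0.33 ± 0.33 and −0.11 ± 0.40 (SD over 3 probes). The anaphase-promoting complex genes had small differences, −0.34 ± 0.57 (SD over 3 probes) for its activator Cdc20 and −0.48 for its ubiquitin-conjugating enzyme Ube2c.

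Top2a and Mki67, both common markers of cycling cells, lay apart. Top2a, which untangles chromosomes, lay at −0.74 on the Th17 and Th0 array and 0.37 on the Th1 and Th0 array, a difference of −1.10. Mki67, the gene of the Ki-67 antigen, lay at −0.83 ± 0.05 and −1.51 ± 0.26 (SD over 2 probes), and its difference was 0.69 ± 0.30. Both Mki67 probes were below −1.3 on the Th1 and Th0 array, where 24 of the 28 mitosis genes were above 0.

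**Figure D3:**
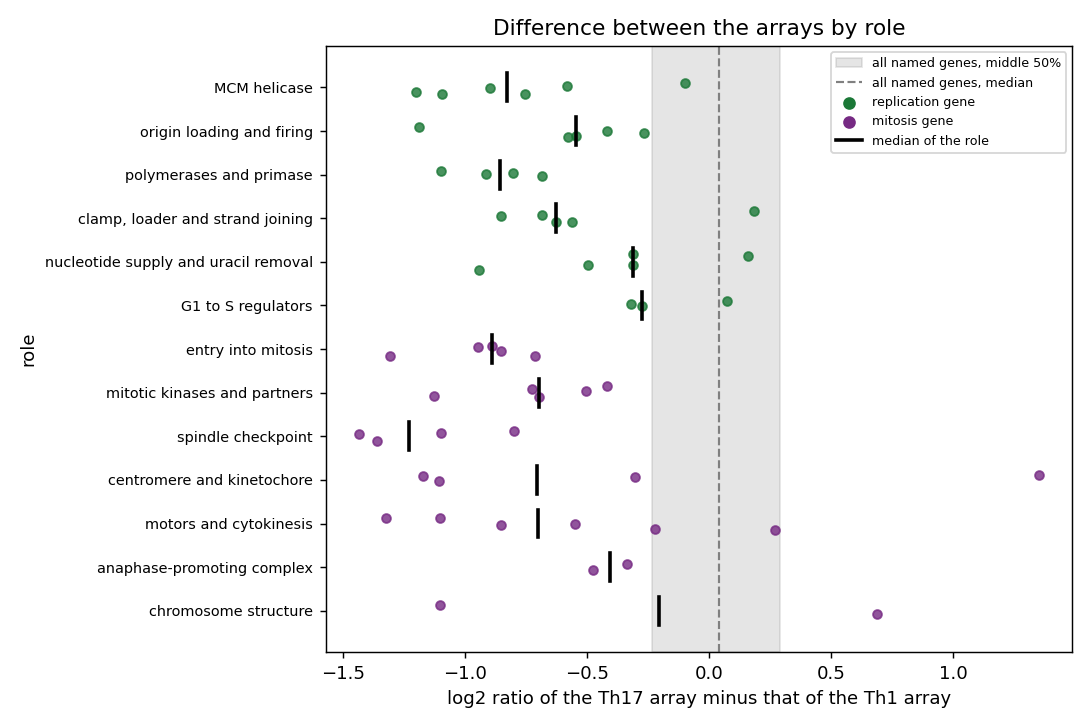
Log2 ratio of the Th17 array minus that of the Th1 array (x axis) for each replication or mitosis gene, by role (y axis), with a black bar for the median of a role and a grey band for the middle 50% of all named genes. The checkpoint genes lie lowest, with a median of −1.23, the regulators of the G1 to S step have a median of −0.28, and Cenpe is the point at 1.35.

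Different probes of a gene were the sole repeat measurement. The pooled SD between probes was 0.49 on the Th17 and Th0 array, 0.51 on the Th1 and Th0 array and 0.52 in the difference over the 5886 named genes with several probes. Over the 23 replication and mitosis genes with several probes it was 0.38, 0.84 and 0.94, and the distant Cenpe probe is among these values. A single gene's difference of the median size, −0.69, is thus not far beyond the spread between probes over all named genes, 0.52. On at least 1 array 19 of the 23 genes had probes on both sides of 0, and in 5 of them, Mcm4, Mcm6, Cdc6, Cdk1 and Cenpe, probes lay more than 1 apart on the log2 scale.

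**Figure D4:**
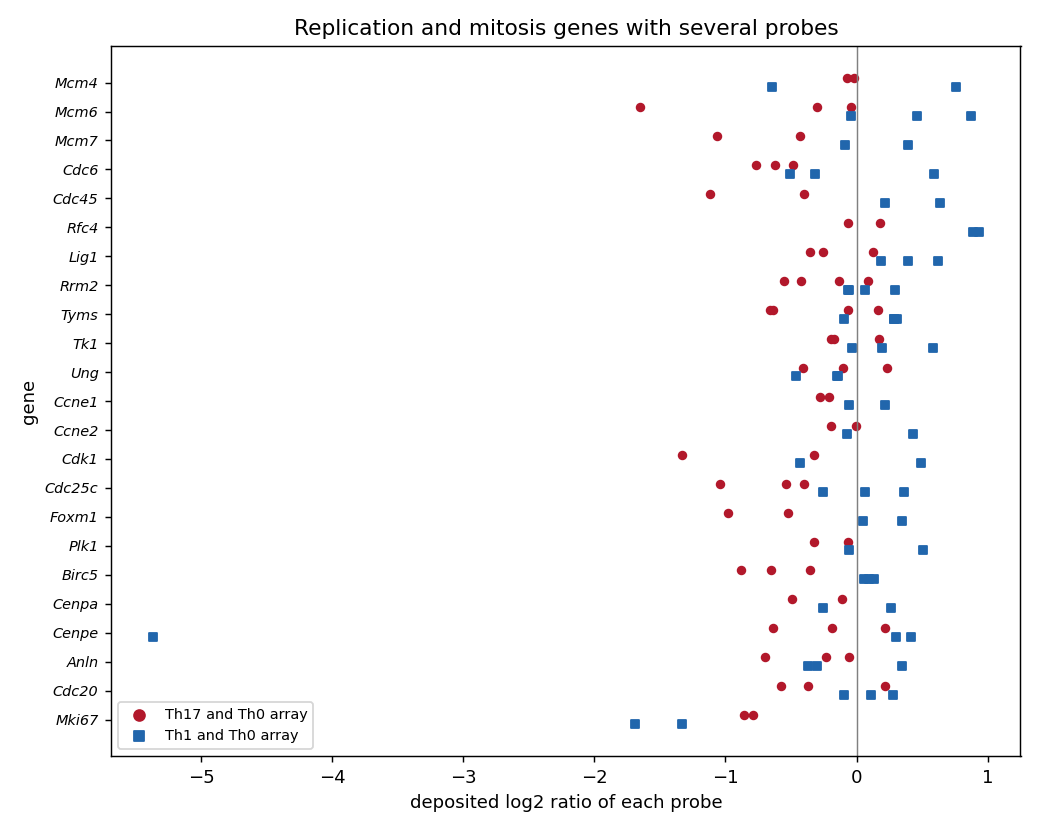
Deposited log2 ratio (x axis) of every probe of the 23 replication and mitosis genes with several probes (y axis), with circles for the Th17 and Th0 array and squares for the Th1 and Th0 array. The Cenpe square at −5.37 stands alone, and 19 genes have probes on both sides of 0 on at least 1 array.

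Other genes of the same processes, listed by function but with earlier results of these data known, lay where the described genes lay. The 37 measured of 40 other replication genes had medians of −0.13 on the Th17 and Th0 array, 0.45 on the Th1 and Th0 array and −0.52 in the difference. There 14 were negative by at least 1.5-fold, against 9.33% of all named genes, and 0 positive by as much, against 11.2%. The 40 measured of 44 other mitosis genes had medians of −0.39, 0.28 and −0.73. Of their differences 28 were negative and 1 positive by at least 1.5-fold, against the same shares of all named genes. Chaf1a, a histone chaperone of replication, had the lowest difference of the first list, −1.25, and Trip13, a checkpoint ATPase, that of the second, −1.78. Nek2, a centrosome kinase, was that 1 positive gene, at 0.60. The order of the 2 processes was thus the same as above on both arrays.

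Genes upstream of division were mixed. Of 10 G1 cyclins and kinases, 1 was at least 1.5-fold on the negative side of the difference, against 9.33% of all named genes. That gene was Cdk2 at −0.65, and the median of the 10 was −0.17. Ccnd2, a cyclin of G1, lay at 0.71 on the Th17 and Th0 array and 0.41 on the Th1 and Th0 array, and its relative Ccnd3 at −0.91 and −0.88, so these 2 cyclins lay on opposite sides of both arrays. The 17 measured of 18 cell cycle brakes had medians of −0.15 on the Th17 and Th0 array and 0.01 on the Th1 and Th0 array, and of 0.07 in the difference. Cdkn2b, an inhibitor of the G1 kinases, lay at 2.81 and 2.68 on those arrays and Cdkn2a, its neighbour in the same locus, at 1.98 and 1.11. Ccng2, a cyclin of arrested cells, lay at 2.16 and −2.17, with a difference of 4.33, and Btg2, an antiproliferative gene, at 1.09 and −0.13, each from 1 probe.

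**Figure D5:**
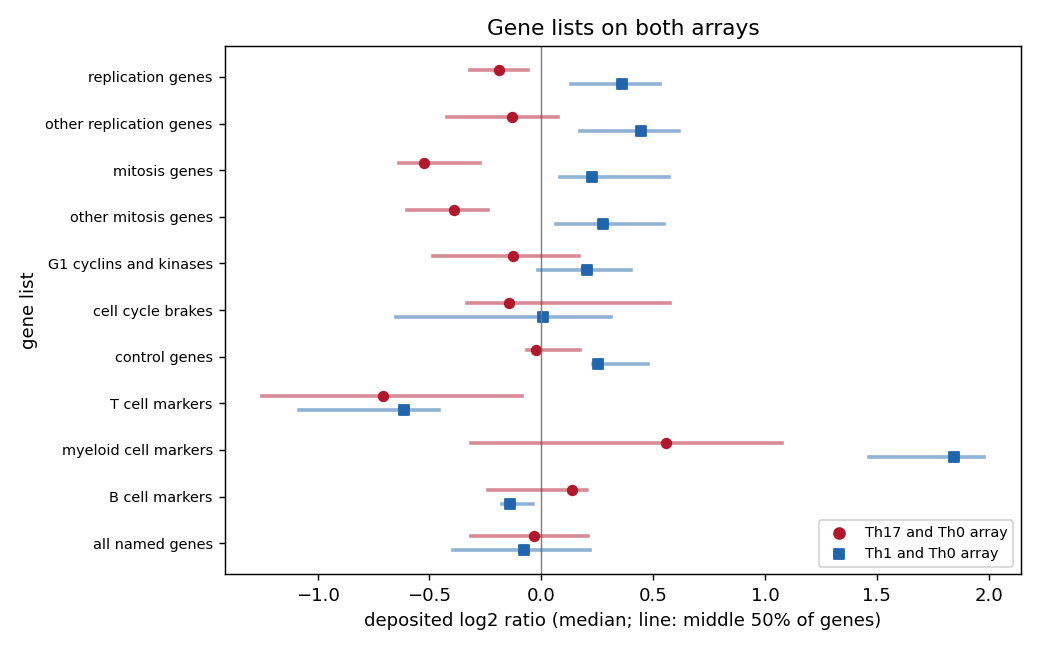
Median deposited log2 ratio (points) and middle 50% of genes (lines) of each gene list (y axis) on the x axis, with circles for the Th17 and Th0 array and squares for the Th1 and Th0 array. As deposited, replication and mitosis lists have circles below and squares above 0, while against the control genes the mitosis square would lie at −0.03, and the myeloid cell markers have the highest squares, with a median of 1.84.

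The myeloid cell markers and the control genes had median differences below 0, and the T and B cell markers had median differences above it. The 15 measured of 17 myeloid cell markers had medians of 0.56 on the Th17 and Th0 array and 1.84 on the Th1 and Th0 array. On the latter all 15 lay above 0, from 0.03 to 2.98, against 42.6% of all named genes. In the difference 12 of the 15 lay below 0, against 46.1% of all named genes, with a median of −1.43. The 10 measured of 11 T cell markers had medians of −0.71 and −0.61 on those arrays and 0.16 in the difference. For the 7 measured of 8 B cell markers the medians were 0.14 and −0.14 on those arrays and 0.15 in the difference. The part of myeloid RNA in the replication and mitosis values was not tested. The 13 measured of 15 widely expressed control genes had medians of −0.02 on the Th17 and Th0 array and 0.25 on the Th1 and Th0 array, and of −0.23 in the difference. On the Th1 and Th0 array 12 of the 13 lay above 0, against 42.6% of all named genes. In the difference 12 lay below 0, against 46.1%. Set against the control genes, the replication median on the Th1 and Th0 array was 0.11 and the mitosis median −0.03, so the positive side of that array did not hold for the mitosis genes. On the Th17 and Th0 array the medians kept their side under this centring, and in the difference they were −0.30 and −0.55.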

How the data were processed

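Values were the log2 ratios of 2 channels per array that the authors deposited in the series' value table, with 36547 probes and 0 missing values. The unit was read from the values: repeated values lay apart by log2 of small whole-number ratios around the most repeated value, −0.43 on the Th17 and Th0 array and −0.85 on the Th1 and Th0 array. The scanner, background correction and normalisation are not given in the sources used here. Per the labels' protocols, RNA was purified on a column, and 500 ng went into an amplification with amino allyl dye coupling. Of the probes, 26926 carried 1 gene, 203 carried several and 9418 were unnamed here. Gene numbers matched the RefSeq list (GRCm38.p6) for 26774 one-gene probes, and 152 kept the platform's symbol. Probes were averaged per gene with Python 3.11.15 and pandas 2.3.3. With 1 array per comparison no p-value was computed, and genes were counted at 1.5-fold and 2-fold. Scripts were tested on simulated data. Weak channels were searched up to 5 units with a log2 tolerance of 0.0005. On either array 7 of the 93 probes met this (7.53%), against 5.32% of all probes with 1 gene. The matches of the 7 were all on the Th1 and Th0 array, in probes of Cdc45, Tyms, Cdk1, Cenpe, Nuf2 and Prc1. All measured genes of the list could be named, and for other lists those with the largest absolute values. The genes and lists were chosen with earlier results of these data known, and the roles within each group were assigned after the values were seen. Alternatives were other centrings, other treatments of probes and a narrower list.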

Additional observations from a re-analysis of the deposited data

Results flagged for a closer look

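The medians of both groups lay on opposite sides of 0 on the 2 arrays as deposited. For replication genes they were −0.19 on the Th17 and Th0 array and 0.36 on the Th1 and Th0 array, and for mitosis genes −0.52 and 0.23. Centred on the most repeated value, the replication medians were 0.24 and 1.21, and centred on control genes, the mitosis medians were −0.50 and −0.03, so each group then lay on a single side. The difference between the arrays was not tested, since each is a single array. Of single genes, Ccna2, with a difference of −1.31, and Bub1b, with −1.36, were the genes that lay at least 1.5-fold from 0 on both arrays with opposite signs, negative on the Th17 and Th0 array and positive on the Th1 and Th0 array. These differences were not tested either.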

How the results depend on the processing

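Centring each array on the median of all named genes, or taking the median over probes, left the 9 group medians and gaps near the reported values. Near means within the pooled SD between probes divided by the square root of the number of genes. The 6 counts stayed within 1.5 times. The lower replication and mitosis medians of the Th17 array minus the Th1 array held under all 9 alternatives. The replication median also stayed above the mitosis median on each array. The centrings among these alternatives cannot change a gap within an array, so they are no check of that order. Centring on the most repeated value turned the replication median on the Th17 and Th0 array to 0.24 and moved the mitosis median to −0.10. It moved the medians on the Th1 and Th0 array to 1.21 and 1.07 and those of the difference to −1.005 and −1.25. The counts of the 56 genes became 0 at 2-fold and 2 at 1.5-fold on the Th17 and Th0 array, against 10.9% and 34.7% of all named genes under the same centring. They became 37 and 54 on the Th1 and Th0 array, against 31.5% and 69.4%, and 33 and 50 in the difference, against 11.6% and 34.9%. Centring on control genes moved the replication median on the Th1 and Th0 array to 0.11, turned the mitosis median there to −0.029 and moved those of the difference to −0.30 and −0.55. The counts became 2 at 2-fold and 9 at 1.5-fold on the Th1 and Th0 array, against 13.6% and 33.9% of all named genes, and 5 and 21 in the difference, against 10.3% and 28.5%. Centring changes these values by its construction. Genes with 1 probe gave replication medians of −0.091 on the Th17 array, 0.49 on the Th1 array and −0.69 in the difference, and mitosis medians of 0.37 on the Th1 array and −1.10 in the difference. Counts were not run on these genes. Their gaps were 0.43 on the Th17 and Th0 array and 0.42 in the difference, and the cause was not tested. With every probe as its own value the gap on the Th1 and Th0 array was 0.028, and without weak-channel probes it was 0.054. The narrower list gave a mitosis median of −0.42 on the Th17 and Th0 array and gaps of 0.18 there, 0.19 on the Th1 and Th0 array and 0.10 in the difference, which turned the order of the 2 arrays. Without probes that match a weak channel, 2 genes were at least 2-fold on the Th17 and Th0 array. Cenpe turned to 0.30 on the Th1 and Th0 array and to −0.49 in the difference with the median over probes, to 0.30 and −0.94 without weak-channel probes, and to 0.36 and −0.77 without its distant probe, an alternative chosen after seeing the data. Without weak-channel probes Cdk1 moved to −0.32 on the Th17 and Th0 array, and no other gene past 1.5-fold changed its side. Signal over background was not in the table, so low signal could be judged from whole-number ratios alone.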
